A study of Mus musculus with 4 samples.

Results

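The nuclear-encoded subunits of the mitochondrial respiratory chain and ATP synthase, with cytochrome c, were compared between mouse embryonic fibroblasts (MEFs) with and without Pf1. Members were the probe sets whose platform annotation gave a single gene symbol starting with Nduf (assembly factors named Ndufaf left out), Uqcr, Atp5 or Cox4 to Cox8, or Sdha, Sdhb, Sdhc, Sdhd, Cyc1 or Cycs. This gave 174 probe sets of 84 genes, out of 18194 genes on the array: 36 genes of complex I, 4 of complex II, 9 of complex III, 17 of complex IV, 17 of complex V and Cycs, the mobile carrier between complexes III and IV. Genes were placed in a complex by their symbol.

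The 4 samples were primary fibroblast lines of the 7706 series, 1 array each: lines 2 and 4 were Pf1 -/- and lines 5 and 6 were Pf+/+. Pf1, the product of Phf12, has PHD fingers and acts with Sin3 and histone deacetylases in repressing transcription. All lines were grown from torsos of embryonic day 13.5 or 14.5 embryos, in 6% oxygen for every line, and RNA was taken at passage 2 or 3. Embryonic day and passage are not tied to individual lines in the labels, nor is it stated whether the lines derive from different embryos. The p-values set each difference against the spread of these 4 lines within genotype, with the variance drawn toward that of all genes. Whether that spread covers differences between embryos is not known.

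The respiratory chain passes electrons from NADH (complex I) and succinate (complex II) through ubiquinone to complex III, then through cytochrome c to complex IV, which reduces oxygen. Complexes I, III and IV pump protons, and complex V, the ATP synthase, uses the gradient to make ATP. Several subunits, most of them in complex IV, exist as a widely expressed isoform and a tissue- or oxygen-dependent isoform. Fibroblasts express the widely expressed set, and isoforms of muscle and testis are the less usual ones there.

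The deposited values, taken as log2 values, have a median of 0 over the 4 arrays for each probe set. They show differences between lines and hold no expression level. A difference is knockout minus wild type on the log2 scale, with the standard error (SE) of the limma fit and n = 2 lines per genotype. A gene is called at a limma adjusted p under 0.05 (Benjamini-Hochberg over all genes). The Phf12 probe set 1434922_at was -0.37 and -0.41 in knockout lines 2 and 4, against 0.56 and 0.37 in lines 5 and 6 of the wild type (difference -0.86 ± 0.109 SE, limma adjusted p = 0.0213 in the fit over all probe sets). The other Phf12 probe set, 1453579_at, differed by 0.012 (limma adjusted p = 0.965). Averaged into 1 gene value, Phf12 stood at -0.42 ± 0.0934 (limma adjusted p = 0.0504). The sources used here do not say which exons were deleted, so neither probe set can be placed inside or outside the deletion. Centred values cannot show whether a fibroblast marker was present. Of 10 fibroblast markers, 7 fell in the knockout lines (70%, beside 6.95% of all genes), Pdgfra, Col1a1 and Lum among them, and 0 rose. Wild-type line 5 was the highest line for 9 of the 10, beside 5489 of all 18194 genes. In RNA from whole cultures, fewer cells of a type and less RNA per cell cannot be told apart.

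Most of the 84 genes did not pass the test. Limma called 7 of them, 3 higher and 4 lower in the knockout lines, which is 8.33% against a background of 12.2% of all genes called. The increases were those of Ndufs1, Ndufs7 and Cycs, of 1.44-fold to 1.57-fold. The decreases were those of Cox7a1 (4.69-fold), Ndufa4l2 (3.28-fold), Cox6b2 (1.70-fold) and Ndufv3 (1.42-fold). Taken by direction, 3.57% of members were called higher against 5.21% of all genes, and 4.76% were called lower against 6.95%. The members' median difference was 0.094, beside -0.0027 over all genes, and 54 of 84 members lay above 0 (64.3%, beside 49.2% of all genes). At an unadjusted limma p under 0.05, 19 members lay higher and 6 lower, beside 14.3% and 15.2% of all genes. A difference of at least 1.5-fold was measured for 5 of the 84 members, beside 9.92% of all genes. Called and at least 1.5-fold were 4 of the 84 members (4.76%), beside 7.72% of all genes. For 60 of the 84 members the difference was smaller than 0.25 in size, beside 12145 of all 18194 genes. The median size of the difference was 0.157 for members and 0.152 for all genes. The 95% interval of the difference lay within 1.5-fold in either direction for 69 members (82.1%, beside 71.2% of all genes). With any 1 line left out, limma called 0 members higher and 0 or 1 lower, and 0 to 321 of all genes against 2211 with every line. The 1 member called was Cox7a1, without knockout line 4.

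**Figure D1:**
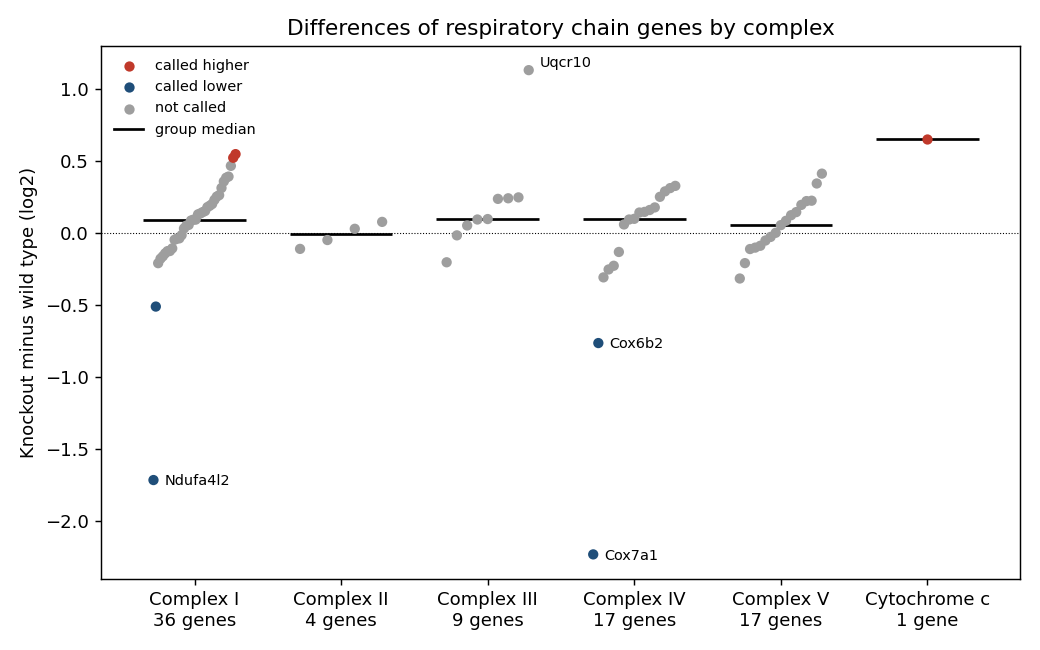
Knockout minus wild type difference (log2, y axis) of each of the 84 genes, grouped by complex and ordered by size within it, with 2 lines per genotype and a black bar at each group's median. Points crowd around 0 in every complex, and Cox7a1 (-2.23), Ndufa4l2 (-1.71) and Cox6b2 (-0.76) stand below the rest. Uqcr10 (1.13) is high but not called.

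Upstream sequences are shown for the called members with a promoter in the RefSeq table (GRCm38.p6), which held 68 of the 84 members, so that the genes that rose and fell can be set side by side. Each line gives the 250 bases before the annotated start, 5′ to 3′ on the gene's strand. Capitals mark matches, on either strand, to GCATGCGC (core of the Nrf1 site), CCGGAAG (Ets factors, GABP among them), TGACGTCA (cyclic AMP response element), CCAAT and GGGCGG (GC box).
Cycs, chr6:50566570-50566819, minus strand: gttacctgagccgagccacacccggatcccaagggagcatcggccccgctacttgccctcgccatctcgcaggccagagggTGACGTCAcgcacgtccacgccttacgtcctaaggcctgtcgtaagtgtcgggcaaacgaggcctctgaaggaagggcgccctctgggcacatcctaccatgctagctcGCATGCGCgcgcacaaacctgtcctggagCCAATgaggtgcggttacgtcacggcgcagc
Ndufs7, chr10:80249199-80249448, plus strand: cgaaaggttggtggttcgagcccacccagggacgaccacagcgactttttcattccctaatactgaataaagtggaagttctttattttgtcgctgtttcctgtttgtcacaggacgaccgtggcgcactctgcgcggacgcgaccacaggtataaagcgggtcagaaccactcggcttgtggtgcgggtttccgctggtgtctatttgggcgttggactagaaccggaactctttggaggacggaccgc
Cox7a1, chr7:30183921-30184170, plus strand: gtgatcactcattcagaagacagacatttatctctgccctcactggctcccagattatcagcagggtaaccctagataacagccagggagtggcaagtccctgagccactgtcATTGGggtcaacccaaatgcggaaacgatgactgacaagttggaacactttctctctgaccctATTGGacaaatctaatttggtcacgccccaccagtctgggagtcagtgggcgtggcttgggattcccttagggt
Cox6b2, chr7:4753095-4753344, minus strand: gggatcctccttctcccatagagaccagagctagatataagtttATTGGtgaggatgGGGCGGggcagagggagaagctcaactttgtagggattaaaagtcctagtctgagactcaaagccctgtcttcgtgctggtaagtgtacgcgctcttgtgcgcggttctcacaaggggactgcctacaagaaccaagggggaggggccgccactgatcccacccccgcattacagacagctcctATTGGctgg
Ndufv3, chr17:31519865-31520114, plus strand: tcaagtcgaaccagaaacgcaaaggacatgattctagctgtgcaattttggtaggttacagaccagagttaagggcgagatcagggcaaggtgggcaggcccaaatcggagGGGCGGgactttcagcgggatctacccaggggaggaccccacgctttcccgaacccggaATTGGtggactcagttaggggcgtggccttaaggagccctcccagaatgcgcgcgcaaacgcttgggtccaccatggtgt
The Cycs window held 1 match each to GCATGCGC, TGACGTCA and CCAAT. The Cox7a1 window held 2 matches to CCAAT, and that of Cox6b2 held 2 to CCAAT and 1 to GGGCGG. The Ndufv3 window held 1 of each of the last named motifs, and the Ndufs7 window held none of the 5. G and C made up 64% of the Cycs window and 51.2% of the Cox7a1 window, beside 55.5% over all protein-coding promoters of this length. Over the members with a promoter, GCATGCGC was found in 8 of 68 (11.8%, beside 3.32% of 17492 protein-coding genes). CCGGAAG was found in 12 (17.6%, beside 10.2%) and TGACGTCA in 4 (5.88%, beside 2.2%). CCAAT was found in 29 (42.6%, beside 39.5%) and GGGCGG in 26 (38.2%, beside 45.8%). No motif contains another. A match describes the sequence and does not show binding. The median difference was 0.19 for members with GCATGCGC, 0.20 with CCGGAAG, 0.20 with TGACGTCA, -0.026 with CCAAT and 0.13 with GGGCGG. In that order, 1 of 8, 0 of 12, 1 of 4, 4 of 29 and 2 of 26 members were called. Over all 84 members the median was 0.094 and 8.33% were called, beside 12.2% of all genes. A link between motif and difference was not tested.

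Complex I, the NADH dehydrogenase, is built from a core shared with bacteria and a larger number of accessory subunits. Of its 36 measured genes, counted by symbol and so with Ndufa4 and Ndufa4l2 among them, 2 rose, 2 fell and 32 did not pass. The share called was 11.1%, beside 12.2% of all genes. The median difference was 0.094, between -1.71 (Ndufa4l2) and 0.55 (Ndufs7), with 23 genes above 0. Both genes that rose encode core subunits of the peripheral arm that carry iron-sulphur clusters. Ndufs7, which lies next to the ubiquinone site, was 0.26 and 0.23 in knockout lines 2 and 4, against -0.40 and -0.20 in lines 5 and 6 of the wild type. It rose 1.46-fold (0.55 ± 0.1 SE, limma adjusted p = 0.0342), with 0.56 and 0.53 in its 2 probe sets. Ndufs1, the largest subunit, was 0.28 and 0.21 in the knockout lines, against -0.36 and -0.21 in the wild-type lines. It rose 1.44-fold (0.52 ± 0.0946, limma adjusted p = 0.0336). For both genes the knockout lines lay close together and wild-type line 5 was the lowest. Without 1 line, Ndufs7 lay between 0.45 and 0.65 (limma adjusted p from 0.0556 to 0.186) and Ndufs1 between 0.45 and 0.60 (0.0619 to 0.195), so neither call held.

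The other 4 measured core subunits did not pass. Ndufv1, which binds NADH, differed by 0.19 ± 0.102 SE (limma adjusted p = 0.298) and Ndufs3 at 0.18 ± 0.0936 (limma adjusted p = 0.284). Ndufv2 stood at -0.16 ± 0.105 (limma adjusted p = 0.395) and Ndufs8 at -0.12 ± 0.0976 (limma adjusted p = 0.478), so the measured core genes differed in sign. Their median was 0.19, beside 0.090 for the other 30 genes of complex I.

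Ndufv3, an accessory subunit of the module that binds NADH, was -0.44 and -0.19 in knockout lines 2 and 4, against 0.19 and 0.20 in lines 5 and 6 of the wild type. The wild-type lines were close and the knockout lines spread, without overlap. It fell 1.42-fold (-0.51 ± 0.11 SE, limma adjusted p = 0.048) in its only probe set here. It was just past the threshold, and was not called with array weights (adjusted p = 0.0577), with the median of probe sets (adjusted p = 0.052), or without any 1 line (-0.63 to -0.39, adjusted p from 0.0912 to 0.231). Of the accessory genes that did not pass, Ndufs4, Ndufa12, Ndufa7, Ndufa3 and Ndufab1, the mitochondrial acyl carrier protein, had probe sets of both signs. For Ndufab1 the 5 probe sets ran from -0.032 to 0.38, and for Ndufs4 the 4 probe sets ran from -0.10 to 0.24. At the level of the gene these 5 stood between 0.032 (Ndufs4) and 0.20 (Ndufab1).

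Ndufa4l2 is an isoform of Ndufa4 that hypoxia-inducible factor switches on and that lowers complex I activity in low oxygen. It was -0.97 and -0.62 in knockout lines 2 and 4, against 1.22 and 0.62 in lines 5 and 6 of the wild type. Both knockout lines lay far below both wild-type lines, and wild-type line 5 was the highest. It fell 3.28-fold (-1.71 ± 0.233 SE, limma adjusted p = 0.0203), in a single probe set. Ndufa4 itself, now placed in complex IV by structural work, was 0.25 and 0.11 in the knockout lines, against -0.32 and -0.11 in the wild-type lines, and did not pass (0.39 ± 0.113, limma adjusted p = 0.0897). Without 1 line, the difference of Ndufa4l2 lay between -2.01 and -1.41 (limma adjusted p from 0.0528 to 0.108), and its call was lost each time.

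Complex II, succinate dehydrogenase, is encoded by 4 nuclear genes and also works in the citric acid cycle. None of them was called or reached an unadjusted p under 0.05 in limma. The flavoprotein Sdha differed by -0.11 ± 0.0953 SE (limma adjusted p = 0.528), and the iron-sulphur subunit Sdhb at 0.078 ± 0.104 (limma adjusted p = 0.694). The membrane anchors Sdhc and Sdhd stood at -0.048 ± 0.0784 and 0.030 ± 0.086 (limma adjusted p = 0.758 and 0.871). All 4 intervals of the difference lay within -0.35 to 0.35, that is, under 1.5-fold either way. Lines overlapped between the genotypes for all of them but Sdhc, whose knockout lines (-0.030 and -0.034) lay just below the wild-type lines (0.020 and 0.011). Sdha, Sdhc and Sdhd had probe sets of both signs.

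Complex III, the cytochrome bc1 complex, had 9 measured genes and 0 calls by limma. At an unadjusted p under 0.05, 2 lay higher and 0 lower (22.2%, beside 29.5% of all genes). The median difference was 0.098. The core protein Uqcrc2 was lowest, at -0.20 ± 0.0942 SE (limma adjusted p = 0.237). Cyc1, the haem-bearing cytochrome c1, was -0.071 and 0.15 in knockout lines 2 and 4, against -0.19 and 0.071 in lines 5 and 6 of the wild type. Its lines overlapped (0.098 ± 0.133, limma adjusted p = 0.70). Uqcr10, a small subunit, had the highest mean difference of all 84 genes (1.13 ± 0.601) but did not pass (limma adjusted p = 0.293). It was 0.62 and -0.043 in the knockout lines, against -1.73 and 0.043 in the wild-type lines, so the genotypes overlapped and wild-type line 5 stood apart. That low value came from the probe sets 1434340_at (-2.86) and 1434341_x_at (-2.18), while 1424364_a_at of the same gene was -0.15 in line 5. Without wild-type line 5 the difference of Uqcr10 was 0.24.

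Cytochrome c, Cycs, carries electrons from complex III to complex IV and, once released into the cytosol, activates caspases. It was 0.26 and 0.26 in knockout lines 2 and 4, against -0.53 and -0.24 in lines 5 and 6 of the wild type. The knockout lines were nearly equal and both wild-type lines lay below them. It rose 1.57-fold (0.65 ± 0.12 SE, limma adjusted p = 0.0347). Of its 4 probe sets, 3 stood between 0.68 and 0.98, and 1445484_at stood at 0.13. Without 1 line the difference lay between 0.51 and 0.80 (limma adjusted p from 0.0528 to 0.174), and the call was lost each time.

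**Figure D2:**
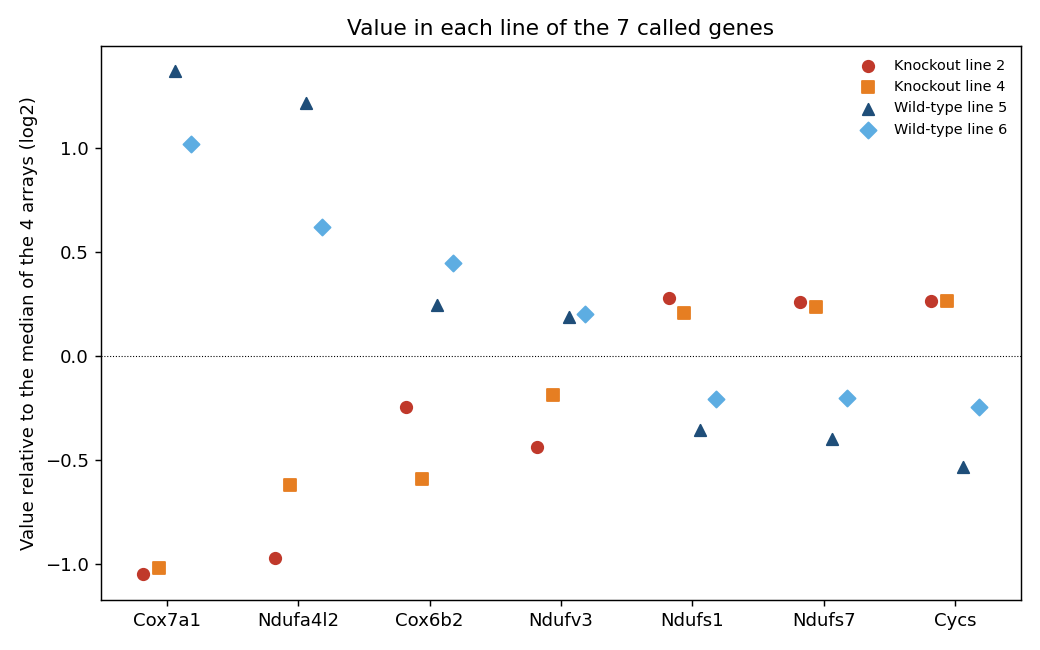
Value of the 7 called genes in each of the 4 lines (y axis, log2, relative to the gene's median over the arrays). In Cox7a1, Ndufa4l2, Cox6b2 and Ndufv3 both knockout lines lie below both wild-type lines, and in Ndufs1, Ndufs7 and Cycs they lie above. Wild-type line 5 is the most extreme wild-type line in 5 of the 7 genes, Cox6b2 and Ndufv3 being the exceptions.

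Complex IV, cytochrome c oxidase, held the largest decrease. Of 17 genes, 2 fell, 0 rose and 15 did not pass (11.8% called, beside 12.2% of all genes). Their median difference was 0.099. Cox7a1, the isoform of heart, skeletal muscle and brown fat, was -1.05 and -1.02 in knockout lines 2 and 4, against 1.37 and 1.02 in lines 5 and 6 of the wild type. The knockout lines were almost equal and lay more than 2 log2 units below the nearer wild-type line. Cox7a1 fell 4.69-fold (-2.23 ± 0.136 SE, limma adjusted p = 0.0103), in a single probe set. Without 1 line it lay between -2.40 and -2.05. It stayed called without knockout line 4 (limma adjusted p = 0.0322) and was not called without knockout line 2 (0.0534), wild-type line 5 (0.0887) or wild-type line 6 (0.0528). Cox6b2, the testis isoform of Cox6b, was -0.24 and -0.59 in the knockout lines, against 0.24 and 0.45 in the wild-type lines. It fell 1.70-fold (-0.76 ± 0.149, limma adjusted p = 0.0385), and without 1 line lay between -0.94 and -0.59 (limma adjusted p from 0.0976 to 0.134), not called.

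The widely expressed partners of these isoforms were examined next. Cox7a2, the counterpart of Cox7a1, differed by 0.31 ± 0.0823 SE (limma adjusted p = 0.0735) and Cox6b1, the counterpart of Cox6b2, at 0.29 ± 0.0912 (limma adjusted p = 0.109). Neither passed the test, and their differences had the opposite sign to those of the isoforms that fell. Cox7a2l, a related protein that joins complexes III and IV into supercomplexes, stood at -0.25 ± 0.08 (limma adjusted p = 0.111), with all 3 probe sets between -0.26 and -0.24. Cox4i1 stood at 0.33 ± 0.0819 (limma adjusted p = 0.0654), and its partner Cox4i2, the isoform of lung and low oxygen, at -0.31 ± 0.174 (limma adjusted p = 0.325). Cox4i2 was 0.020 and -0.37 in the knockout lines, against 0.28 and -0.020 in the wild-type lines, so the genotypes overlapped.

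Cox6a1 stood at 0.25 ± 0.0951 SE and its muscle isoform Cox6a2 at -0.13 ± 0.0974 (limma adjusted p = 0.159 and 0.455). Cox8a (0.095), the muscle and brown fat isoform Cox8b (0.15), the testis isoform Cox8c (-0.23) and the testis isoform Cox7b2 (0.099) did not pass either, with limma adjusted p between 0.329 and 0.555. Cox5b stood at 0.060, with 6 probe sets from -0.0034 to 0.16. Of the 7 tissue isoforms of complex IV (Cox4i2, Cox6a2, Cox6b2, Cox7a1, Cox7b2, Cox8b and Cox8c), 2 fell and 5 did not pass. The share called was 28.6%, beside 12.2% of all genes. These isoforms had a median of -0.23, with 2 above 0. Of the other 10 genes of complex IV, 0 were called. An unadjusted limma p under 0.05 was found for 4 of these genes above 0 and 1 below it (50%, beside 29.5% of all genes). Their median was 0.17, and 9 of the 10 lay above 0, all but Cox7a2l.

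**Figure D3:**
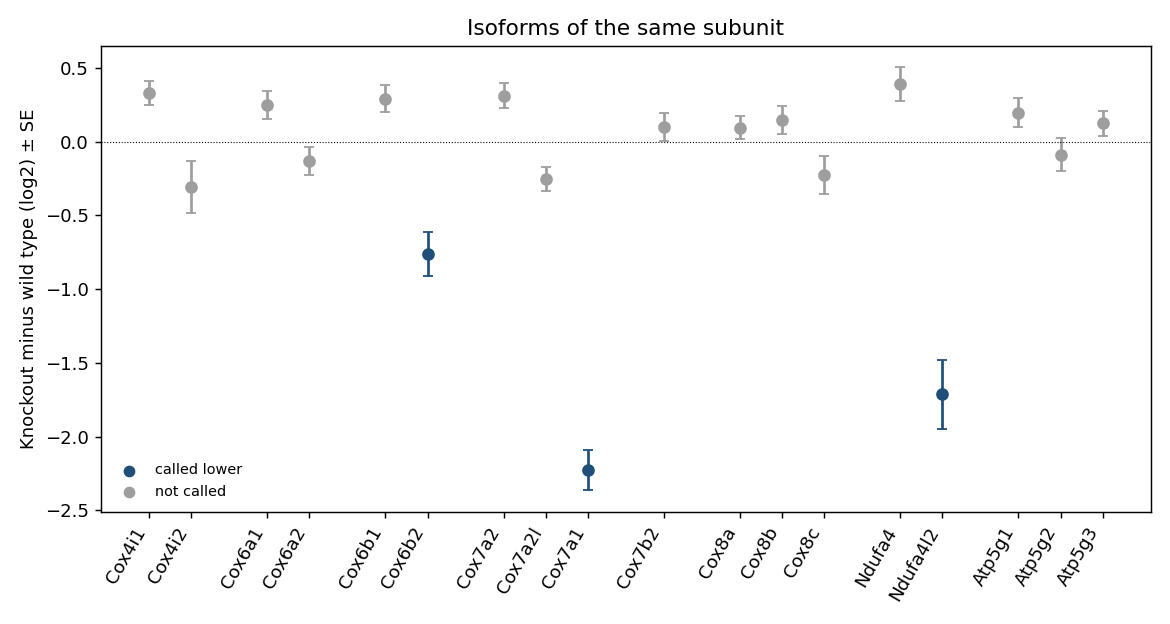
Knockout minus wild type difference (log2, y axis) with its SE for subunits that exist as several isoforms, 2 lines per genotype, each set of isoforms side by side. Cox7a1, Ndufa4l2 and Cox6b2 are called lower, while Cox7a2 (0.31), Ndufa4 (0.39) and Cox6b1 (0.29) lie above 0 and are not called. The 3 genes of the ATP synthase c subunit, Atp5g1 to Atp5g3, lie between -0.088 and 0.20.

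Markers of cells that use the muscle and brown fat isoforms were read beside Cox7a1. Of 18 skeletal and cardiac muscle markers, 3 rose, 0 fell and 15 did not pass, with a median of 0.046. Those that rose were Acta1 (3.14, 8.79-fold), Tnnt2 (1.05) and Des (0.62). The myogenic factors Myod1 (-0.11), Myog (-0.22) and Myf5 (0.043) did not pass. Of 8 brown adipocyte markers, 1 fell (Fabp4, the adipocyte fatty acid-binding protein, -1.39 ± 0.0975 SE, limma adjusted p = 0.0103) and 7 did not pass. Ucp1, the uncoupling protein, stood at 0.13 and Pparg at 1.08. Among 8 smooth muscle markers 6 rose and 0 fell, with a median of 0.82, and Des is counted in this list as well. Among 7 epithelial markers 1 rose (Krt8, 2.42) and 1 fell (Krt19, -0.39). Of these 7, 5 lay above 0 and 2 below, with a median of 0.22. Krt18 stood at 1.60 and did not pass (limma adjusted p = 0.066). Of 5 neuronal markers 1 fell (Stmn2, -2.21 ± 0.15 SE, limma adjusted p = 0.0103). Of 3 measured erythroid markers 0 were called in limma, with 0 at an unadjusted p under 0.05. The 7 macrophage markers had medians of 0.083 and 0.99 in knockout lines 2 and 4, against 0.94 and -0.94 in lines 5 and 6 of the wild type, relative to the wild-type mean, and limma called 0 of them (0 at an unadjusted p under 0.05). Limma called 75% of the smooth muscle, 28.6% of the epithelial and 20% of the neuronal markers. For skeletal and cardiac muscle the share was 16.7% and for brown adipocytes 12.5%, beside 12.2% of all genes. The part of these cell types in the change of Cox7a1 was not tested.

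Complex V, the ATP synthase, had 17 measured genes and 0 calls by limma. At an unadjusted p under 0.05, 3 lay higher and 1 lower (23.5%, beside 29.5% of all genes). The median difference was 0.056, with 10 genes above 0. Atp5md, a small membrane subunit, was highest, at 0.28 and 0.13 in knockout lines 2 and 4, against -0.29 and -0.13 in lines 5 and 6 of the wild type (0.41 ± 0.105 SE, limma adjusted p = 0.0687). Atp5c1, the rotating central stalk, was lowest, at -0.17 in both knockout lines and 0.15 and 0.14 in the wild-type lines (-0.31 ± 0.0785, limma adjusted p = 0.0652). Its 2 probe sets disagreed in size. 1438809_at stood at -0.58 (limma adjusted p = 0.0333 over all probe sets) and 1416058_s_at at -0.048. With probe sets ending in _x_at or _s_at left out, Atp5c1 was called lower (-0.58, limma adjusted p = 0.0246).

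The 5 genes of the catalytic F1 part (Atp5a1, Atp5b, Atp5c1, Atp5d and Atp5e) had a median of -0.11, with 4 below 0. The other 12, of the membrane part and the stalks, had a median of 0.14, with 9 above 0. Wild-type line 5 was the lowest line for 0 of the 5 and 10 of the 12 (83.3%), beside 30.4% of all genes. This split was not among the planned results. No gene of either set was called. The proton-carrying c subunit is encoded by Atp5g1 (0.20 ± 0.0987 SE), Atp5g2 (-0.088 ± 0.11) and Atp5g3 (0.12 ± 0.085), with limma adjusted p between 0.27 and 0.672. The probe sets of Atp5g2 went opposite ways. 1415980_at was lower by itself (-0.53, limma adjusted p = 0.0344 over all probe sets), and 1456128_at stood at 0.40 (limma adjusted p = 0.326). Atp5a1 (-0.10) and Atp5j2 (-0.026) also had probe sets of both signs. Of all 84 members, 50 had more than 1 probe set, and for 12 of these the probe sets differed in sign.

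Across complexes, the lines of each genotype were set beside the wild-type mean of each gene, so that the values of lines 5 and 6 are equal and opposite by construction. The complex I median was 0.089 and 0.096 in knockout lines 2 and 4, against -0.060 and 0.060 in lines 5 and 6 of the wild type. For complex IV the 4 medians were 0.14, 0.084, -0.024 and 0.024. For complex V they were 0.064, 0.079, -0.067 and 0.067, so that wild-type line 6 lay level with the knockout lines. For complex III they were 0.071, 0.21, -0.065 and 0.065, and for complex II 0.012, -0.030, -0.054 and 0.054. Wild-type line 5 was the lowest line for 52 of 84 members (61.9%), beside 30.4% of all genes. Without it, the members' median was 0.047 and 48 of 84 lay above 0, and the medians of complexes I, IV and V were 0.052, 0.062 and 0.029. Without wild-type line 6 the median was 0.11 and 60 lay above 0. Knockout lines did not overlap with wild-type lines for 60 of the 84 members, 43 higher and 17 lower (71.4%, beside 58.2% of all genes).

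**Figure D4:**
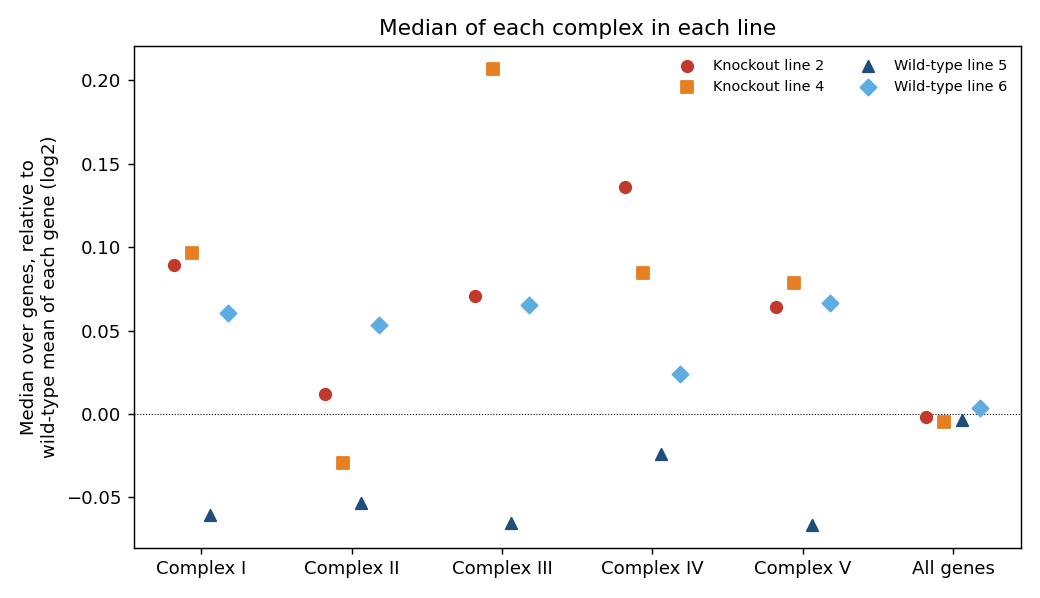
Median over the genes of each complex and over all genes (y axis, log2, relative to each gene's wild-type mean) in the 4 lines. Wild-type line 5 is lowest in every complex, at -0.024 to -0.067, and wild-type line 6 mirrors it because values are relative to the mean of these lines. In complex V line 6 (0.067) lies between knockout lines 2 (0.064) and 4 (0.079). Over all genes the 4 medians lie between -0.0046 and 0.0038.

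Genes that build, regulate or feed the respiratory chain were counted from 7 lists. Over the lists together, 25 of 141 genes were called (17.7%, beside 12.2% of all genes), 17 higher and 8 lower. With any 1 line left out, no call in these lists held. Of 52 assembly factors, 6 rose, 2 fell and 44 did not pass, with a median of 0.057. Ndufaf4, an assembly factor of complex I, rose 2.27-fold (1.18 ± 0.211 SE, limma adjusted p = 0.0326). Sco1, which delivers copper to complex IV, rose 1.94-fold (0.96 ± 0.156), and Lrpprc, which stabilises mitochondrial messenger RNA, rose 1.85-fold (0.89 ± 0.124). Fastkd2 (0.71) and Tmem70, an assembly factor of complex V (0.56), rose as well. Bcs1l, which inserts the Rieske protein into complex III, fell 1.71-fold (-0.78 ± 0.0834, limma adjusted p = 0.016), while the Rieske gene Uqcrfs1 itself stood at 0.095. Ndufaf3, another assembly factor of complex I, fell 1.30-fold (-0.38 ± 0.0791, limma adjusted p = 0.0448), and the copper chaperone Cox17 rose 1.33-fold (0.42).

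Of 27 genes for mitochondrial protein import, 5 rose, 0 fell and 22 did not pass, with a median of 0.28 and 23 above 0. Wild-type line 5 was the lowest line for 22 of the 27 (81.5%, beside 30.4% of all genes). The inner membrane translocase subunit Timm17a rose 2.18-fold (1.12 ± 0.125 SE, limma adjusted p = 0.016), the chaperone Timm10 1.78-fold (0.83) and the outer membrane pore Tomm40 1.71-fold (0.77). The import receptor Tomm22 (0.57) and the nucleotide exchange factor Grpel1 (0.65) completed the 5. The share called higher over all genes was 5.21%.

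Of 16 regulators of respiratory genes, Gabpa, the DNA-binding subunit of GABP, rose (0.54 ± 0.0788 SE, limma adjusted p = 0.0236), as did the deacetylase Sirt1 (0.56 ± 0.0833), and the mitochondrial deacetylase Sirt3 fell (-0.67 ± 0.109). Nrf1, the factor of the GCATGCGC site, stood at 0.049 and the coactivator Ppargc1a at -0.052, and neither passed. Of 16 genes for copying and transcribing mitochondrial DNA, the transcription factor Tfb2m rose (0.65 ± 0.0803), Mterf2 (-0.70), Tfb1m (-0.50), Primpol (-0.49) and the polymerase subunit Polg2 (-0.43) fell, and Tfam stood at 0.050. Of 12 genes of coenzyme Q, the ubiquinone of the chain, the hydroxylase Coq7 rose 2.23-fold (1.16 ± 0.146) and Coq10b 1.76-fold (0.81), and Coq8b fell (-0.45). Of 17 citric acid cycle and pyruvate dehydrogenase genes 1 rose, Dlat (0.55 ± 0.0992), and 16 did not pass. The limma adjusted p of the called genes in this paragraph lay between 0.0183 and 0.0475. Of 13 mitochondrially encoded subunits, 1 had a named probe set, ND5 of complex I. It was 0.64 and 0.28 in knockout lines 2 and 4, against -0.28 and -0.90 in lines 5 and 6 of the wild type (1.05 ± 0.241, limma adjusted p = 0.0548), and did not pass.

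**Figure D5:**
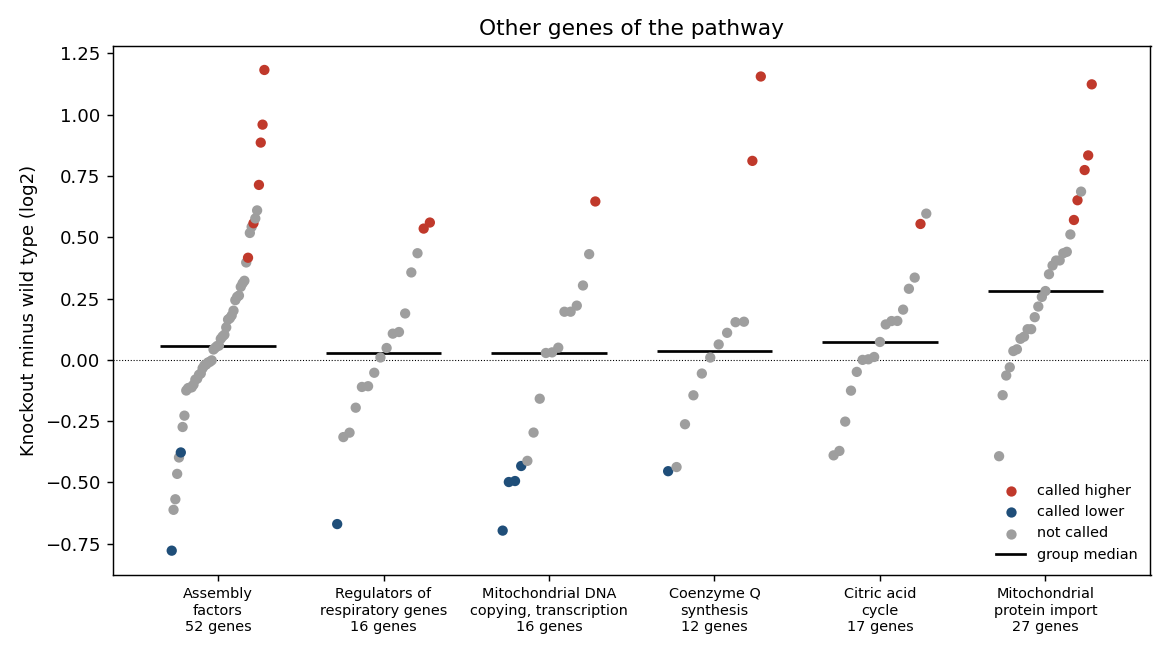
Knockout minus wild type difference (log2, y axis) of each gene in 6 lists that accompany the respiratory chain, ordered by size within a list, 2 lines per genotype, with a black bar at each list's median. The import list has the highest median (0.28), and the other 5 medians lie between 0.029 and 0.073. Called genes lie on both sides of 0 in 4 of the 6 lists.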

How the data were processed

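RNA from 4 lines was hybridised to 1 Affymetrix array each. Per the submitters' processing notes, the authors made the deposited values with Affymetrix Expression Console and RMA. The sources used here give both without versions. Each probe set had a median of 0 over the 4 arrays (within 1e-06), so the deposited log2 values had been centred by a step the labels do not describe. The log base was taken from RMA. The design text names a smaller array than the annotation that matched the 45101 probe sets. The number of arrays limits the precision, and no detection calls were used.

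Probe sets with a single gene symbol were averaged per gene, 18194 genes in all. The 10 probe sets shared by a subunit gene and another gene were left out, and with them Ndufa11 and Ndufs6, which had no other. Knockout minus wild type was fitted with limma 3.58.1 in R 4.3.3, without covariates, with 2 residual and 3.04 prior degrees of freedom, and adjusted over all genes. The fit was tested on simulated data. Genes were named when called, highest or lowest in a complex, in a fixed isoform set, core subunits of complex I, in complex II, Cyc1, Cycs, or with probe sets of both signs. Uqcrfs1, Nrf1, Ppargc1a, Tfam, the uncalled markers and others outside this rule were chosen after their values were seen, and list genes were the called ones, up to 6 a list, with Cox17 and Ndufaf3 added after their values were seen. The members and lists were chosen with earlier results of these data known. Alternatives were array centring, quantile normalisation, array weights, other handling of probe sets, a robust prior and leaving out each line.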

Additional observations from a re-analysis of the deposited data

How the results depend on the processing

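No paired analysis was possible because no line number occurs in both genotypes. A filter on dim probe sets and another background correction were not run, because centred values hold no level. Over the alternatives that keep every line, the members called stayed at 3 higher and 3 to 5 lower. The mean of both Phf12 probe sets passed the threshold with array medians set to 0 (-0.42), quantile normalisation (-0.41), array weights (-0.42) and a robust prior (-0.42). Without _x_at and _s_at probe sets, the complex V median was 0.12, and Ndufa12 (-0.034), Sdhc (0.035) and Sdhd (-0.0071) changed sign. Without the tissue isoforms, an alternative chosen after seeing the data, the complex IV median was 0.17.

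Leaving out 1 line left a single residual degree of freedom, and the counts of calls were 0 to 0 members higher, 0 to 1 lower, 0 to 321 of all genes and 0 to 0 of the other pathway genes. Counts at an unadjusted p under 0.05 are not given for these fits, because 1 genotype then has a single line. The medians ran from 0.052 to 0.13 in complex I, from -0.036 to 0.014 in complex II, from 0.069 to 0.23 in complex III, from 0.062 to 0.14 in complex IV and from 0.029 to 0.082 in complex V. Gene by gene, these fits were read only for the members named by the rule given above. Of these, the uncalled genes Cox5b (-0.017 to 0.14), Cyc1 (-0.031 to 0.23), Ndufs4 (-0.026 to 0.091) and Sdhb (-0.030 to 0.19) changed sign. So did Sdhd (-0.0097 to 0.070), Atp5g2 (-0.21 to 0.034) and Atp5j2 (-0.076 to 0.024). Sign changes of the remaining members are not listed, so the list is not complete for the 84 genes. The cause was not tested.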

Other observations

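Probe sets that the platform annotation assigns to a respiratory chain subunit together with another gene entered no gene mean, and their values are given here. Ndufa11 and Ndufs6 of complex I had no probe set of their own and are not among the 84 genes. Limma called 0 of the 10 in the fit over all probe sets, with 1 at an unadjusted p under 0.05. That was 1429708_at, shared by Ndufa11 and Ndufa11b, which was 0.30 and 0.098 in knockout lines 2 and 4, against -0.39 and -0.098 in lines 5 and 6 of the wild type (0.44 ± 0.141 SE, limma adjusted p = 0.129). Its partner for the same genes, 1444154_at, stood at 0.021. The probe set 1416495_s_at, shared by Ndufs5 and its pseudogene, stood at 0.36, and 1447919_x_at, shared by Ndufab1 and its pseudogene, at 0.37. The probe sets 1428075_at and 1428076_s_at, shared by Ndufb4 and related copies, stood at 0.12 and 0.18. Ndufs6 and its copy Ndufs6b share 1433603_at, which stood at -0.20. In the probe sets shared by Ndufa13 and Yjefn3 the differences were -0.14 and 0.045, and in that shared by Ndufb2 and Adck2 -0.21.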
